A study of Rattus norvegicus with 10 samples.

Results

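The miR-129 and miR-7 families were followed in the medial prefrontal cortex (mPFC) of morphine-treated rats through 5 of the 679 rat miRNA probes of the array. The members were chosen by name: rno-miR-129, its opposite strands rno-miR-129-1* and rno-miR-129-2*, rno-miR-7a and rno-miR-7b, read by 3 miR-129 probes and 2 miR-7 probes. Names without a star denote the strand usually kept from a precursor and names with a star the opposite strand. The probe that stands for miR-129-1* is shared, as its name on the array is rno-miR-129-1*/rno-miR-129-2*, and miR-129-2* also has a probe of its own. Tissue came from male wild-type Sprague Dawley rats aged 2 months, with 5 rats with saline and 5 with morphine and 1 array per sample. The morphine group had 2 intraperitoneal injections daily over 5 days, with each dose at 10 mg/kg on day 1, 20 mg/kg on day 2, 30 mg/kg on day 3 and 40 mg/kg on days 4 and 5, and the saline group was injected on the same schedule. All injections were given by the experimenter, and the tissue was whole dissected mPFC with all its cell types, so that fewer cells of a type and less RNA per cell cannot be told apart.

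A miRNA is cut from a hairpin precursor as a short duplex of a 5p and a 3p arm, and pairs with target mRNAs mainly through its seed, the bases after the first at its 5′ end. Targets bound in this way are usually degraded or translated less. miR-129 is enriched in brain and in excitatory neurons takes part in homeostatic lowering of synaptic strength. miR-7 is prominent in neuroendocrine cells and neurons, where it represses alpha-synuclein and is bound by the circular RNA Cdr1as.

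The mature sequences are shown because the seeds sort the members into 3 groups and because near-identical members gave unlike readings. They were taken from RefSeq (GRCr8), where all 5 members had an entry among 693 rat mature miRNAs, with starred names read as the 3p arm and the others as the 5p arm. Capitals mark the seed, bases 2 to 8.
miR-129: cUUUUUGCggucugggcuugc
miR-129-1*: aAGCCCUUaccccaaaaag
miR-129-2*: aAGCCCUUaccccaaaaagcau
miR-7a: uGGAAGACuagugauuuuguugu
miR-7b: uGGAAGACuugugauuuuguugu
No other rat entry held the seed of miR-129. The opposite strands miR-129-1* and miR-129-2* shared a seed with each other alone, and the 19 bases of the first are the first 19 of the 22 bases of the second. miR-7a and miR-7b likewise shared a seed with each other alone. Over their 23 bases they differ by 1 substitution, A10U, in which miR-7a has the first base and positions are counted from the 5′ end.

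In GRCr8 the miR-129 strand comes from a pair of precursor genes and is the same in both. Mir129-1 lies at chr4:58589711-58589782 on the plus strand, within a long noncoding RNA gene, and Mir129-2 at chr3:100657390-100657486 on the minus strand, with no other annotated gene over it. Their precursors are shown to place each arm, with the mature strands in capitals.
Mir129-1: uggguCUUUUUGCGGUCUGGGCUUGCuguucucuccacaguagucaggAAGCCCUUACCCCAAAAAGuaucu
Mir129-2: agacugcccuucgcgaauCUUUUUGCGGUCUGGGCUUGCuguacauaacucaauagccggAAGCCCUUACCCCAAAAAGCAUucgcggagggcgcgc
A reading of miR-129 therefore cannot be assigned to either gene, while the opposite strands come from 1 gene each. miR-7a also has a pair of precursors. Mir7-1, at chr17:6278692-6278788 on the plus strand, lies within Hnrnpk, which encodes an RNA-binding protein, and the Mir7a-2 precursor lies at chr1:142215800-142215894 on the plus strand within a long noncoding RNA gene. The Mir7b precursor lies at chr9:1167436-1167545 on the plus strand, over a ribosomal protein pseudogene.

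Signal over background and the cell markers differed between the groups before any member was considered. The median local background was 84 to 348 on the saline arrays and 63 to 141 on the morphine arrays. The median negative-control probe read -186.25 to -27.25 on the saline arrays and -67 to 9.5 on the morphine arrays. A fixed level of 30 therefore lay at unequal heights above these controls, whose group medians were -99 with saline and -42.25 with morphine. Of the 679 rat miRNA probes, 180 to 281 reached an intensity of 30 on the saline arrays and 260 to 419 on the morphine arrays. Most rat miRNA probes thus lay below 30 on each saline array, and also on morphine replicates 1 and 2, where 311 and 260 reached it. Of 14 other neuron-enriched miRNAs, 10 lay below 30 on every saline array, among them miR-9, a defining miRNA of neural tissue. Others were present there, as its opposite strand miR-9* read 2195 to 4838, miR-124 read 507 to 1349 and miR-138 read 79.7 to 281 on the saline arrays, so that most but not all neuron markers of the labelled tissue were below detection in the saline group. The summed level of these 14 was 2986 to 6545 with saline and 46212 to 148024 with morphine, where spots of the neuronal miR-124 reached the scanner ceiling on replicate 2. Conversely, miR-199a-5p, a miRNA of connective tissue, read 3525 to 12198 with saline and -0.980 to 47.3 with morphine. The part of these differences in the values of the members was not tested, and treatment and array group cannot be told apart.

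miR-129 was detected on morphine arrays only. The values are mean intensities of 4 spots after subtraction of the local background, scaled so that the typical bright rat miRNA is level across arrays. They can fall below 0 where a spot was dimmer than its surroundings. miR-129 read -34.4, -81.3, -8.89, -199 and -153 in saline replicates 1 to 5 and 99.0, -10.4, 1081, 232 and 758 in morphine replicates 1 to 5. No saline array and 4 of 5 morphine arrays reached 30, the level used as the detection minimum and as the floor before log2. The groups overlapped, as morphine replicate 2 lay below saline replicate 3. miR-129 missed the filter of 30 on at least 5 arrays, and was therefore tested in a fit of 304 probes to which the members below the filter were added. On the log2 scale it was higher in the morphine group by 2.90 ± 0.83 (SE, n = 5 per group, 95% confidence interval 1.12 to 4.69, limma adjusted p = 0.0132), and an exact permutation over the arrays gave a two-sided p of 0.0476. In that fit 32.6% of all probes rose at the same threshold. The size of the difference rests on the floor, because all saline values were set to 30. The saline group therefore added no spread of its own to the SE and interval, and miR-129 could only be higher with morphine. For the same reason the permutation p of the floored values depended only on how many morphine arrays lay above the floor. This held for all members but miR-7a.

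**Figure D1:**
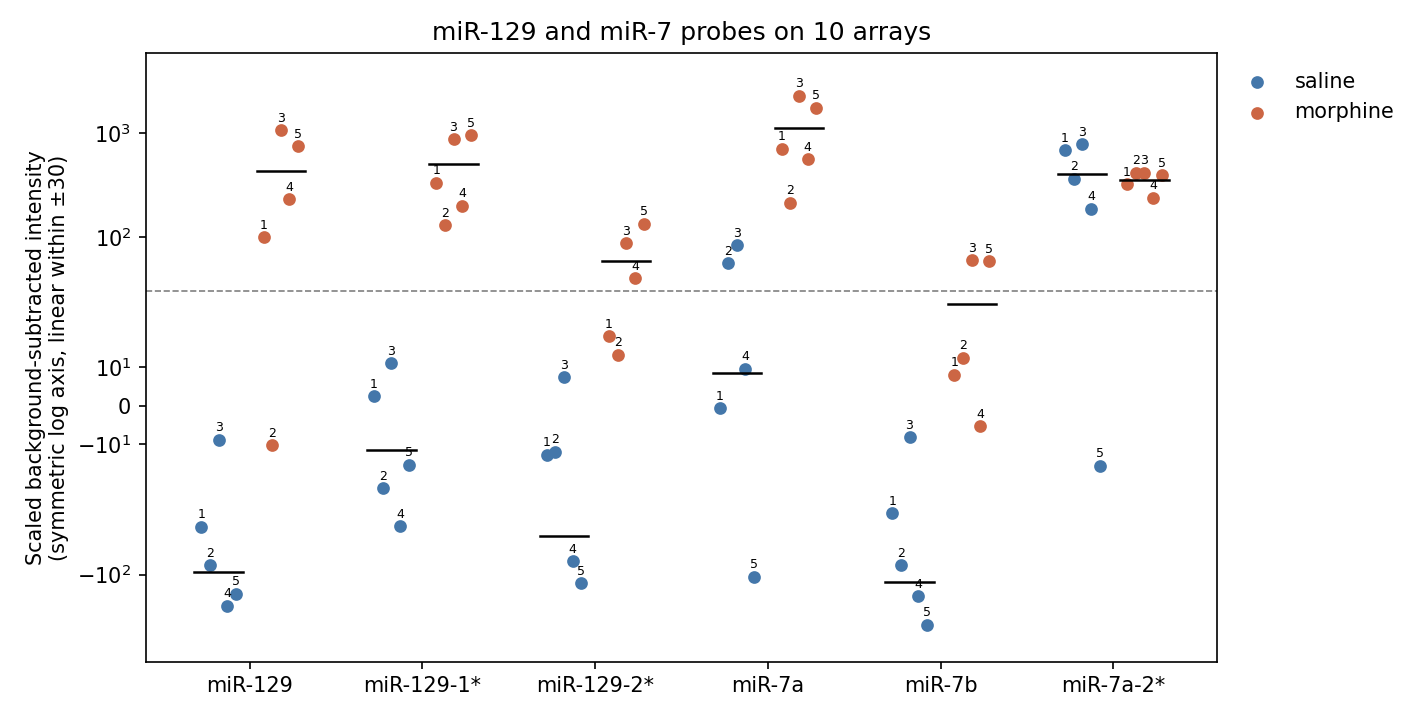
Scaled background-subtracted intensity (symmetric log axis, linear within 30 of 0) of the 5 members and of miR-7a-2* on the 5 saline and 5 morphine arrays, with replicate numbers beside the points, black bars at the group means and a dashed line at 30. All 5 morphine arrays of miR-129-1*, miR-129-2*, miR-7a and miR-7b sit above their saline arrays, as for 15.3% of the 679 rat miRNA probes. Morphine replicate 2 of miR-129 lies at -10.4, among the saline arrays.

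A difference in miR-129 was also seen before any subtraction. Its foreground was 75 to 218 on the saline arrays and 125 to 980 on the morphine arrays, a log2 difference of 1.82 (two-sided exact permutation p = 0.0159, n = 5 per group). With the median of the same array's 7 negative-control probes as zero, it read -14.3 to 54.8 with saline and 53.8 to 913 with morphine (two-sided exact permutation p = 0.0159). Both of these comparisons overlapped. The scaled foreground did not, as it reached at most 133 on the saline arrays and ran from 140.2 to 1063 on the morphine arrays. The call was lost under some settings: with cyclic loess scaling the log2 difference was 0.89 (limma adjusted p = 0.217), with a floor of 100 it was 1.51 (limma adjusted p = 0.121), and without a filter on dim probes the limma adjusted p was 0.0728.

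The shared probe of the opposite strands, miR-129-1*, read higher in every morphine sample than in any saline sample. It read 2.51, -21.6, 11.1, -33.9 and -15.4 in saline replicates 1 to 5 and 335, 130, 880, 200 and 962 in morphine replicates 1 to 5, so that no saline array and all 5 morphine arrays reached 30 and the groups did not overlap. Such separation with morphine higher was seen for 15.3% of the 679 rat miRNA probes on these values. The shared probe passed the filter through the morphine arrays alone and could only be higher there. All its saline values were set to the floor, so the saline group added no spread of its own to the SE and interval. The log2 difference was 3.64 ± 0.57 (SE, n = 5 per group, 95% confidence interval 2.40 to 4.88, limma adjusted p = 0.000245 over 301 probes), and exact permutation gave a two-sided p of 0.00794, the smallest value that 5 samples against 5 allow. Among the 301 tested probes, 32.6% rose (98 probes), 35 fell and the median log2 difference was 0.45. Because the probe lay below detection on all saline arrays, the fold is best given as a bound: against the higher of each saline array's lowest detected rat miRNA signal and the probe's own signal, it was at least 11.3-fold higher in the morphine group. This bound holds for this subtraction and scaling alone, as the log2 difference was 2.00 with the negative controls as the baseline, 1.91 with a floor of 100 and 1.61 on the scaled foreground, all smaller than the bound.

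Without subtraction or scaling the shared probe overlapped between the groups. Its unscaled foreground was 99.2 to 332 on the saline arrays and 299 to 1068 on the morphine arrays, a log2 difference of 1.62 (two-sided exact permutation p = 0.0238, n = 5 per group). Saline replicate 5, whose local background was the highest of the 10, held the foreground of 332. After scaling, the foreground was 148 to 212 on the saline arrays and 294 to 947 on the morphine arrays, without overlap. Above the negative controls it read 38.5 to 173 with saline and 226 to 979 with morphine, without overlap (two-sided exact permutation p = 0.00794). With the unpaired test that the methods name for group comparisons, run on linear-scale values and called the methods' t-test, the difference was 4.06 on the log2 scale with an adjusted p of 0.100.

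The probe of miR-129-2* alone did not pass the test. It read -12.8, -12.0, 7.41, -74.7 and -121 in saline replicates 1 to 5 and 18.2, 13.3, 87.0, 39.6 and 134 in morphine replicates 1 to 5, with 3 morphine arrays and no saline array at 30. The scaled values did not overlap, but most lay under the floor, and the log2 difference was 0.82 ± 0.50 (SE, n = 5 per group, 95% confidence interval -0.25 to 1.89, limma adjusted p = 0.209). Exact permutation gave a two-sided p of 0.167. The foreground ranges were nearly the same, 88.5 to 277 and 108 to 249, with a log2 difference of 0.07 (two-sided exact permutation p = 0.841). In limma it passed with a floor of 10 alone, at a log2 difference of 2.03 (adjusted p = 0.0220), and the exact permutation p was 0.0476 without morphine replicate 1 and also without morphine replicate 2. With quantile normalization the difference was -0.016.

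**Figure D2:**
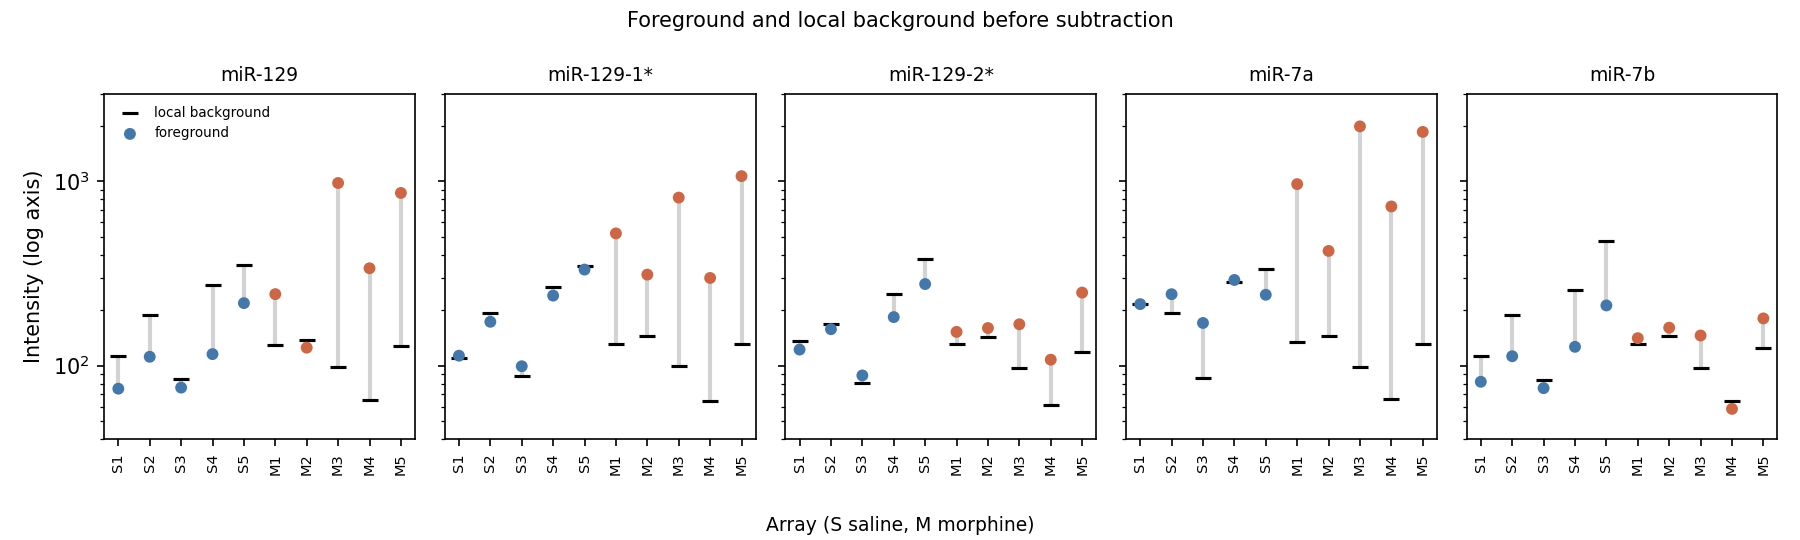
Foreground (coloured points) and local background (black dashes) of each member on each array, in intensity units on a log axis, before subtraction and scaling, with saline arrays S1 to S5 and morphine arrays M1 to M5. For miR-129 and miR-7b the saline foreground lies under its background on all 5 arrays, and for miR-7a the morphine foreground of 420 to 1989 lies above the saline foreground of 170 to 292.

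miR-7a was higher on every morphine array than on any saline array. It read -0.684, 55.4, 83.5, 9.65 and -105 in saline replicates 1 to 5, of which 2 reached 30. In morphine replicates 1 to 5 it read 713, 215, 2319, 567 and 1774, all above every saline array. The log2 difference was 4.29 ± 0.65 (SE, n = 5 per group, 95% confidence interval 2.89 to 5.68, limma adjusted p = 0.000184 over 301 probes), and exact permutation gave a two-sided p of 0.00794. Since 3 saline arrays were set to the floor, this size depends on it, and with a floor of 100 it was 3.02 (limma adjusted p = 0.00457).

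On the unscaled foreground miR-7a was the member that kept the groups apart, with 170 to 292 on the saline arrays and 420 to 1989 on the morphine arrays, a log2 difference of 2.15 (two-sided exact permutation p = 0.00794, n = 5 per group). Such separation with morphine higher was seen for 7.07% of the 679 rat miRNA probes on the unscaled foreground. On the scaled foreground it was seen for 10.9% of them and for miR-129, miR-129-1* and miR-7a. On the scaled background-subtracted values before the floor it was seen for 15.3% of them and for 4 of the 5 members, miR-129 being the exception. Above the negative controls miR-7a read 46.5 to 154 with saline and 341 to 1922 with morphine. The call did not hold in the methods' t-test, where the log2 difference was 4.61 with an adjusted p of 0.100.

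The spots of miR-7a differed widely within an array. The same spot position was the highest on every morphine array, at 1534, 611, 3135, 981 and 2587 in replicates 1 to 5. On morphine replicate 3 the 4 background-subtracted spots ran from 1073 to 3135, on replicate 2 from 85 to 611, and on saline replicate 1 from -224 to 160. The spots of miR-129 on morphine replicate 5 ran from 725 to 758 and those on morphine replicate 3 from 619 to 1200. The spread of spots on morphine replicate 2 thus reached down into the range of the saline spots for miR-7a, although the array mean did not.

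**Figure D3:**
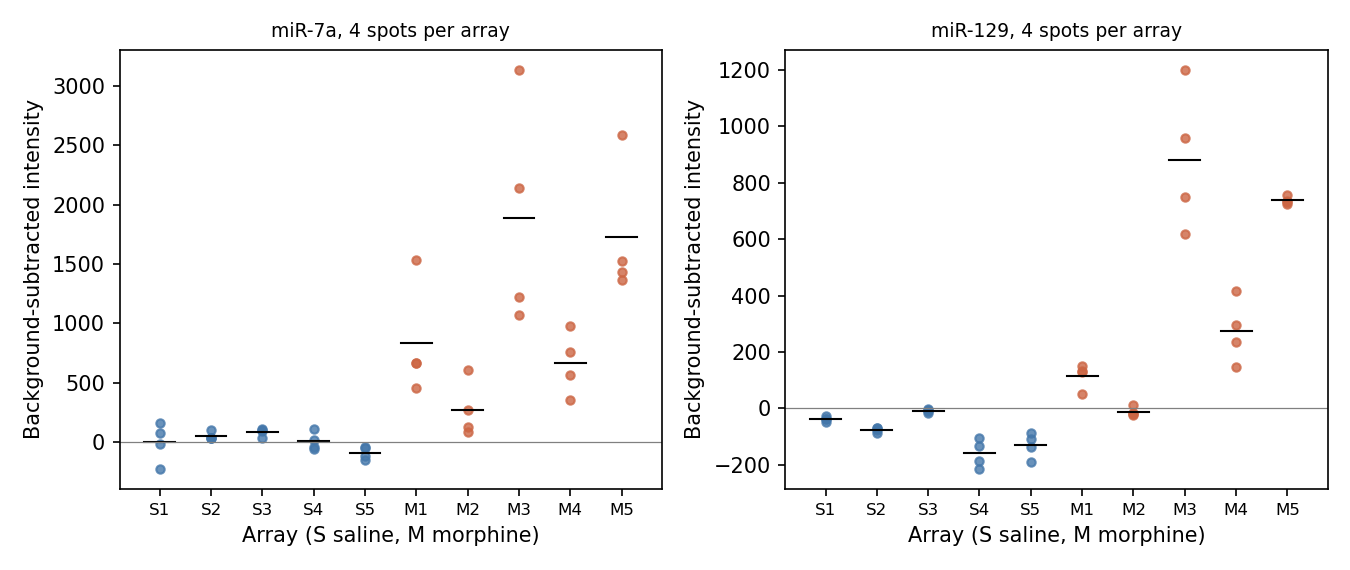
Background-subtracted intensity of each of the 4 spots of miR-7a (left) and miR-129 (right) on saline arrays S1 to S5 and morphine arrays M1 to M5, unscaled and on a linear axis, with black bars at the array means. The miR-7a spots of morphine replicate 3 run from 1073 to 3135, and the miR-129 spots of morphine replicate 2 stay between -25 and 10.

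miR-7b, which differs from miR-7a at a single base outside the seed, stayed near background. It read -28.1, -81.5, -8.15, -162 and -306 in saline replicates 1 to 5 and 8.14, 12.5, 59.2, -5.32 and 57.8 in morphine replicates 1 to 5, with 2 morphine arrays at 30. The lowest saline value rested in part on 1 spot at -577. The log2 difference was 0.39 ± 0.40 (SE, n = 5 per group, 95% confidence interval -0.48 to 1.25, limma adjusted p = 0.485), and exact permutation gave a two-sided p of 0.444. The foreground overlapped, at 75.5 to 212 against 58.2 to 180 (two-sided exact permutation p = 0.675). Above the negative controls it read -77.5 to 22.5 with saline and -15.8 to 98.5 with morphine (two-sided exact permutation p = 0.0397), and with these controls as the baseline the log2 difference was 0.94 (limma adjusted p = 0.0487). The scaled values of miR-7b thus separated the groups while its foreground, scaled or not, did not, and around its spots 3 of 5 saline arrays had a local background above that of every morphine array.

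Members were also compared within arrays to ask whether their changes were unequal, in 4 pairs with p-values adjusted over the 4. All members but miR-7a lay at the floor on every saline array, so the change of each of these is its morphine level above the floor. A brighter probe then shows a larger change, and levels of different probes cannot be read as relative amounts. The change of miR-7a exceeded that of miR-7b by 3.90 on the log2 scale, with all 5 morphine arrays above all saline arrays (two-sided exact permutation, adjusted p = 0.0159, n = 5 per group). With the negative controls as the baseline it exceeded it by 1.74 (adjusted p = 0.0635). The change of the shared probe miR-129-1* exceeded that of the miR-129-2* probe by 2.82, again on 5 of 5 morphine arrays (two-sided exact permutation, adjusted p = 0.0159). For this pair all saline differences were 0 at the floor, so the value of 2.82 is a difference in level on the morphine arrays and cannot show unequal change. The scaled foreground, which stayed above the floor for both probes, gave 1.55 (two-sided exact permutation, adjusted p = 0.0317). With the negative controls as the baseline it was 1.98 (adjusted p = 0.0317). How much a miRNA that differs by 1 base or by 3 end bases binds to the neighbouring probe was not tested.

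The arms of the miR-129 precursors were not told apart by their change. The change of miR-129 was smaller than that of miR-129-1* by 0.74 on the log2 scale (-0.74, SD of the morphine arrays 1.13, two-sided exact permutation, adjusted p = 0.246, n = 5 per group), and its sign turned on the scaled foreground (0.20) and with the negative-control baseline (0.78). Without morphine replicate 3 the difference was -1.0 and without morphine replicate 4 it was -0.98, each with an adjusted p of 0.0476. All saline differences of this pair were 0, since both probes lay at the floor. The change of miR-129 against that of miR-7a was -1.39 (two-sided exact permutation, adjusted p = 0.0529), and it passed the threshold under 5 alternatives but turned to 0.10 with the negative-control baseline. It also passed without saline replicate 3 (-1.64, adjusted p = 0.0212), without morphine replicate 3 (-1.58, adjusted p = 0.0423) and without morphine replicate 4 (-1.53, adjusted p = 0.0476).

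Within the morphine group the members ranked the arrays alike. Replicates 3 and 5 were the highest for all 5 members, and replicate 2 was the lowest for all but miR-7b, whose lowest was replicate 4. The summed level of the other neuron-enriched miRNAs was also highest on replicates 3 and 5 (135364 and 148024), but lowest on replicate 4 (46212). The oligodendrocyte, vessel wall and connective tissue, and blood and immune lists were likewise highest on replicates 3 and 5, and their lowest array was replicate 2 (233, 2040 and 1421), as for 4 of the 5 members. For miR-129 the morphine values spread from -10.4 to 1081 (432 ± 467, SD, n = 5), a spread larger than the mean.

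Neither opposite strand of the miR-7a precursors passed the test. miR-7a-1*, from Mir7-1, lay below 30 on all 10 arrays. Above the negative controls it still read -7.5 to 0.25 with saline and -1.25 to 44 with morphine (two-sided exact permutation p = 0.0159). That p equals the one of miR-129 on this measure, so the measure also separated a probe that was not detected. miR-7a-2*, from the other precursor, read 692, 365, 784, 187 and -15.7 in saline replicates 1 to 5 and 321, 416, 417, 239 and 393 in morphine replicates 1 to 5. The morphine values lay within the range of the saline values, and the log2 difference was 0.45 ± 0.77 (SE, n = 5 per group, 95% confidence interval -1.22 to 2.11, limma adjusted p = 0.663). Both opposite strands are shown for their arm, with bases 2 to 8 in capitals.
miR-7a-1*: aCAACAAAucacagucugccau
miR-7a-2*: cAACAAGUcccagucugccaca
The seed of miR-7a-2* was held by no other rat entry, and that of miR-7a-1* was shared with miR-3065-5p.

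The pattern of each detected member over the 10 arrays was set against the other 300 tested probes, as the root mean square difference of log2 values after each probe was centred on its own mean. For miR-129-1* the nearest were miR-30c (0.384), miR-328b-3p (0.428) and miR-338 (0.462), where the median over all probes was 2.02. miR-338 is an oligodendrocyte miRNA, and it lay below 30 on every saline array, as did miR-328b-3p. For miR-7a the nearest were miR-451 (0.508), a red blood cell miRNA, miR-138 (0.522), a neuron-enriched one, and the shared probe of miR-129-1* (0.577), with a median of 2.29. These values describe shared patterns, which hold the difference between the groups and the floor.

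Marker lists of the cell types did not all move alike, and only those of neurons and of blood and immune cells mostly rose. Of the other neuron-enriched miRNAs, 11 of 12 tested rose, 0 fell and 1 did not pass, with a median log2 difference of 4.47 against 0.45 over all tested probes, of which 32.6% rose. Of these 12, 8 lay below 30 on all saline arrays, entered the test through the morphine arrays alone and could only be higher there. Of the blood and immune list, 5 of 5 tested rose, 3 of which entered the test in the same way, and its summed level was 28.3 to 221 with saline and 1421 to 8547 with morphine. In the vessel wall and connective tissue list 2 rose, 4 fell and 5 of 11 did not pass, and its summed level went from 13192 to 43451 in the saline group to 2040 to 13610 in the morphine group. miR-126, the defining endothelial miRNA of that list, lay below 30 on all saline arrays and rose by 4.84 (limma adjusted p = 0.00178). In the oligodendrocyte list 1 rose and 1 fell, in the muscle list 0 rose, 1 fell and 1 did not pass, and in the epithelium, liver and gut list 0 rose, 1 fell and 2 did not pass. Their part in the differences of miR-129 and miR-7a was not tested.

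**Figure D4:**
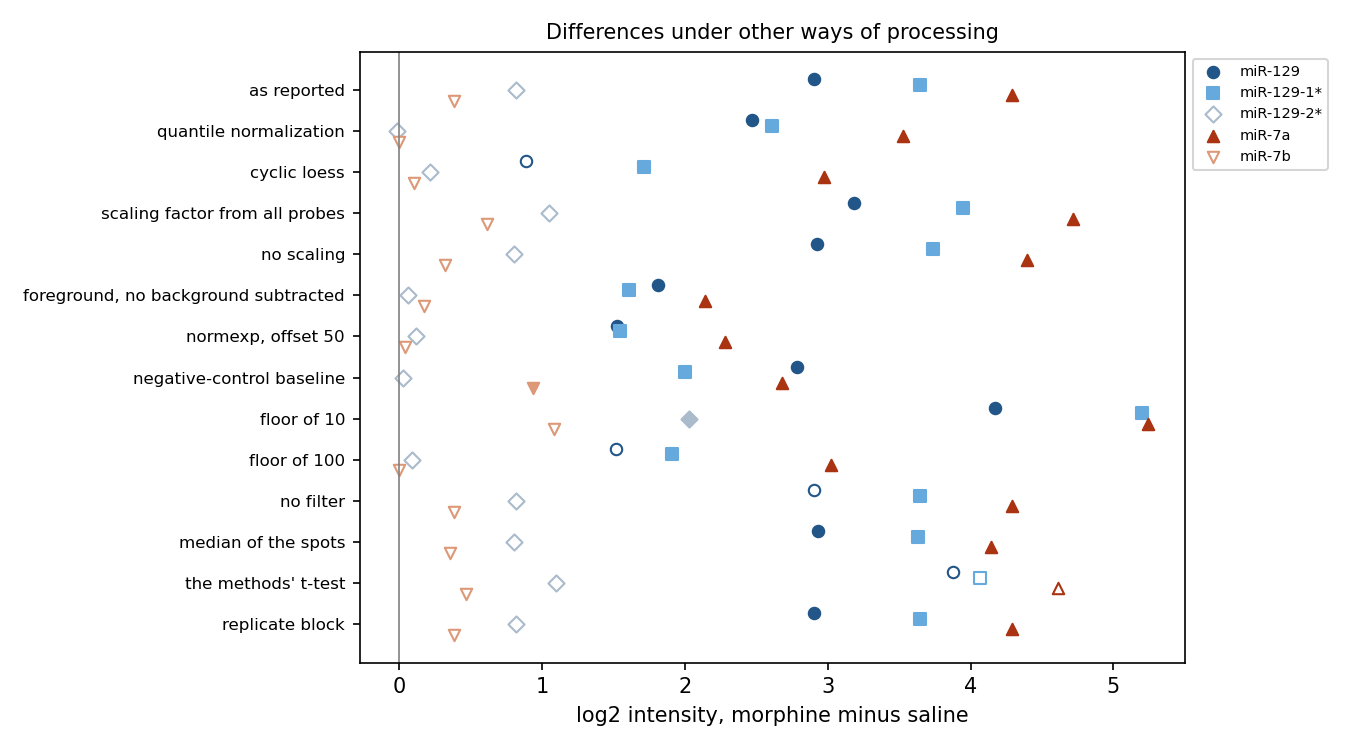
Log2 difference in intensity, morphine minus saline (x axis), of each member as reported and under 13 other ways of processing (y axis), with filled symbols where the adjusted p was under 0.05. miR-7a lies between 2.14 and 5.24 and miR-129-1* between 1.55 and 5.20 throughout, whereas miR-129-2* runs from -0.016 to 2.03 and miR-7b from 0 to 1.08.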

How the data were processed

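RNA from 10 mPFC samples, carrying the dye Hy3, was read on miRCURY LNA arrays (v.18.0) with an Axon GenePix scanner and GenePix Pro 6.0. The authors deposited, for every spot and on a linear scale, a foreground intensity and an intensity with the local background taken off, neither of them scaled between arrays. Their value table was also read, and its 35410 values equaled the median of the spots within 1e-06. The method of background estimation and the slide and scan date of an array were not given in the sources used, and no batch could be examined.

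The 4 spots of each of 3541 probes were averaged. As scaling factor an array had its median over those 120 rat miRNA probes that reached 30 on every array (807 to 1101 in the saline group, 819 to 1281 in the morphine group), and the scaled values were returned to intensity units. A floor of 30 preceded log2. Testing with limma 3.58.1 (R 4.3.3, two-sided, Benjamini-Hochberg) covered the 301 rat probes that reached 30 on 5 or more arrays, and 3 members below this filter were added in a fit of 304. Single values were tested by exact permutation over 252 splits. No depth exists for arrays, and their number limits the precision. Named were the members, the opposite strands of miR-7, the 3 tested probes nearest in pattern to each detected member, and examples of the marker lists. Members and lists were chosen with earlier results of these data known. Alternatives changed the scaling, background, floor, filter, spot summary or test, added a replicate block, or dropped single arrays.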

Additional observations from a re-analysis of the deposited data

How the results depend on the processing

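The differences of miR-129-1* and miR-7a kept their direction under all 13 alternatives and passed the test under 12 of them, the exception being the methods' t-test (log2 4.06 and 4.61, each with an adjusted p of 0.100). Over the arrays left out in turn they were 3.30 to 4.02 and 3.91 to 4.77 and passed each time, as did miR-129 at 2.33 to 3.63. Leaving out a saline array could not change miR-129-1* (3.64) or miR-129 (2.90), as all their saline values lay at the floor. Wherever the floor held all saline values of a probe, it could only be higher with morphine, so that its direction there was fixed. miR-129 did not pass with cyclic loess (0.89), a floor of 100 (1.51), no filter (2.90, adjusted p = 0.0728) or the methods' t-test (3.87, adjusted p = 0.162), and its exact permutation p was 0.103 with cyclic loess and 0.167 with a floor of 100. miR-129-2* was -0.016 with quantile normalization (exact permutation p = 1) and passed with a floor of 10 (2.03). miR-7b was 0 with quantile normalization and with a floor of 100, each with an exact permutation p of 1, and passed with the negative-control baseline (0.94).

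The number of tested probes changed with some settings. The 133 calls among 301 tested probes became 227 of 679 on the scaled foreground (109 higher, 118 lower in morphine) and 261 of 679 with normexp (114 and 147). They became 33 among the 120 probes at 30 or more on all 10 arrays, which held no member, and 25 of 301 with the methods' t-test. The split of 98 rises and 35 falls became 67 and 63 with quantile normalization, 46 and 54 with cyclic loess and 116 and 22 when all probes set the factor. It became 92 and 81 among 422 tested probes with the negative-control baseline. In these settings the median log2 of all tested probes moved from 0.45 to -0.43, -0.27, 0.98 and -0.26. With the replicate number as a replicate block there were 107 calls and no member changed its side of the threshold. Whether equal numbers mark paired rats was not given in the sources used. Deviations of same-numbered arrays correlated at -0.40 to 0.05, which cannot settle it.

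The change of miR-129 minus that of miR-129-1* turned to 0.20 on the scaled foreground and 0.78 with the negative-control baseline, and was -1.0 to -0.40 with arrays left out. That of miR-129 minus miR-7a passed with cyclic loess (-2.09), the factor from all probes (-1.54), no scaling (-1.47), normexp (-0.75) and a floor of 100 (-1.51), turned to 0.10 with the negative-control baseline, and was -1.64 to -1.14 with arrays left out. That of miR-7a minus miR-7b was 1.74 with the negative-control baseline. The cause of these changes was not tested.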

Other observations

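Of 4 neuroendocrine miRNAs, a class of cells in which miR-7 is prominent, 2 were tested and 0 passed (limma, adjusted over 301 probes). miR-375, which is enriched in endocrine cells, read 336, 1588, 544, 3538 and 269 in saline replicates 1 to 5 and 1655, 971, 664, 1099 and 1256 in morphine replicates 1 to 5, with every morphine array inside the saline range. Its log2 difference was 0.48 (limma adjusted p = 0.599).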
